A study of Homo sapiens with 2 samples.

Results

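ASNS, ATF4 and 8 further genes of the amino acid response were examined in REH and 697, human cell lines of acute lymphoblastic leukemia of the B-cell precursor type (BCP-ALL). The members were taken as a list of gene symbols, namely ASNS, ATF4, DDIT3, TRIB3, CHAC1, PHGDH, PSAT1, PSPH, SHMT2 and SLC7A11. All 10 symbols matched a gene ID among the 57773 genes of the count files, and all 10 were among the 19145 genes counted with 10 reads or more in at least 1 library, called tested genes here. REH is positive for ETV6/RUNX1, and its second ETV6 allele is deleted, whereas 697 is negative for this fusion. Both were untreated established lines, cultured in RPMI with fetal bovine serum and glutamine. The labels name no asparaginase and no withdrawal of an amino acid. Total RNA of each line was sequenced as 1 library, with 63954817 reads for REH and 58948890 reads for 697. Without replicates, the intervals below cover counting error, every ratio compares these libraries, and no p-value is given.

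ATF4 is the transcription factor at the end of the integrated stress response. Kinases that sense lack of amino acids, stress of the endoplasmic reticulum, lack of heme or double-stranded RNA phosphorylate the initiation factor eIF2 alpha, which slows translation in general but favours translation of the ATF4 message. ATF4 protein then switches on genes for amino acid synthesis and uptake, so that the level of ATF4 mRNA alone does not report its activity. Lymphoblastic leukemia cells are treated with asparaginase, which destroys asparagine in the blood, and asparagine synthetase is the enzyme with which a cell can make its own.

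ATF4 often binds, with a C/EBP partner, to a composite site, the C/EBP-ATF response element (CARE), whose core was searched here as the letters TGATGNAA on both strands. RefSeq promoters on GRCh38.p14, each 250 bases before and 50 bases after a transcription start, were held for 7 of the 10 genes, and PSPH, SHMT2 and SLC7A11 had none in the table. The core was found in ASNS and CHAC1, and 3.62% of all 35116 promoters held it. The stretches around these matches are shown because they carry the site through which amino acid lack is known to act on ASNS. Capitals mark the match, and both stretches read along the strand of the gene.
ASNS, minus strand, chr7:97872429-97872516: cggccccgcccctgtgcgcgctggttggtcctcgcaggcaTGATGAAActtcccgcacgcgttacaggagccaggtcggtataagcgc
CHAC1, plus strand, chr15:40953222-40953309: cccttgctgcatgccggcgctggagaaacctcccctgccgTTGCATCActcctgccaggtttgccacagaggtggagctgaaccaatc
The match in ASNS lies 68 to 61 bases before the start and reads along the gene strand, and that in CHAC1 lies 209 to 202 bases before the start on the other strand. The windows of ATF4, DDIT3, TRIB3, PHGDH and PSAT1 held no such letters. A site outside these windows would not be found, so the search does not show that these genes lack one. The letters TGACNNNGC of the antioxidant response element were found in TRIB3, within 49 bases of its annotated starts, and in 13.3% of all promoters. The endoplasmic reticulum stress response element was found in 0 of the 7 genes and in 0.0769% of all promoters.

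The genes did not move as a block. The 3 enzymes of serine synthesis, the mitochondrial enzyme SHMT2 and ASNS were higher in 697, by between 1.86-fold for PSPH and 4.18-fold for PSAT1. TRIB3 was 18.6-fold higher in REH, and DDIT3 was 1.68-fold higher there. ATF4, CHAC1 and SLC7A11 differed by at most 1.21-fold after scaling. Past a log2 ratio of 2 in either direction, 1 of 10 genes was higher in REH (TRIB3) and 1 of 10 was higher in 697 (PSAT1), against 12.5% and 8.15% of all tested genes. Past a log2 ratio of 1, 1 was higher in REH and 3 were higher in 697 (ASNS, PHGDH and PSAT1), against 22.4% and 17.4% of all tested genes. This second count rested on the scaling described next. Without it DDIT3 passed (1.05) and ASNS did not (-0.90), so that 2 members were higher in each line, against 28.5% and 13.4% of all tested genes. The median log2 ratio of the 10 genes was -0.58, and that of all tested genes was 0.053.

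**Figure D1:**
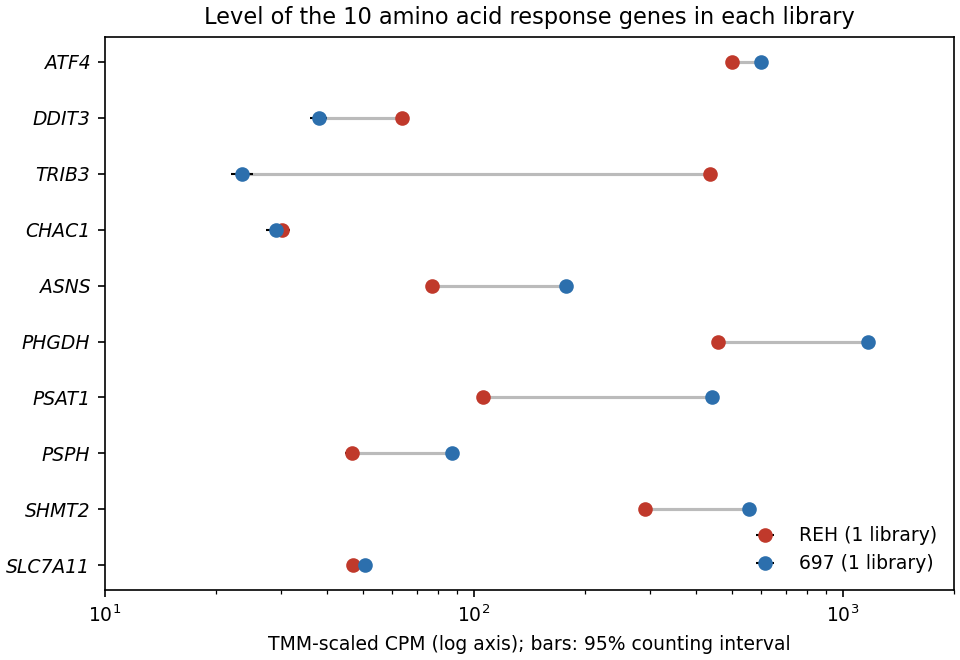
Level of each gene in the REH library (red) and the 697 library (blue), in CPM after TMM scaling on a log axis, with bars for the 95% counting interval, which for most points is narrower than the point. TRIB3 lies at 438 CPM in REH and 23.5 CPM in 697, whereas the points of CHAC1 and SLC7A11 nearly coincide.

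Levels are given as CPM, the depth-normalised count after scaling of the library totals by the trimmed mean of M-values (TMM), and a log2 ratio is REH over 697. ATF4 (chromosome 22, 39519695 to 39522683, GRCh38 with GENCODE 44 as for all positions) was counted with 25121 reads in REH and 22250 reads in 697. Its level was 499.8 CPM in REH and 602 CPM in 697, a log2 ratio of -0.27 (95% counting interval -0.30 to -0.24). The interval excluded 0, but the direction of the difference rested on the scaling. With totals used as they are, the log2 ratio of ATF4 became 0.038, because TMM scaling moved the median of all tested genes by 0.31 on the log2 scale. The ratio of another gene to ATF4 within a library is free of that scaling and is given for each member below.

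DDIT3 (chromosome 12, 57516588 to 57521737) encodes CHOP, a factor induced by ATF4 that is known to promote cell death under lasting stress. It had 3202 reads in REH and 1404 reads in 697. Its level was 63.7 CPM and 38.0 CPM, with a log2 ratio of 0.75 (interval 0.65 to 0.84). Relative to ATF4, DDIT3 reads were 12.7% in REH and 6.31% in 697. DDIT3 overlaps MARS1 and MBD6 on the opposite strand, and 1010 reads in REH and 551 reads in 697 that lay on DDIT3 in one of the strand columns were left out of the main count as ambiguous. These reads may come from the overlapping genes. Summing the strand columns counts all of them for DDIT3 and gave a log2 ratio of 0.66. DDIT3 was higher in REH with or without them.

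TRIB3 (chromosome 20, 362835 to 397559) encodes a pseudokinase induced by ATF4 and CHOP that is known to bind and restrain ATF4 and AKT. It had 21994 reads in REH and 870 reads in 697. Its level of 438 CPM in REH stood against 23.5 CPM in 697, a log2 ratio of 4.22 (interval 4.12 to 4.32). This was the widest gap among the 10 genes, and 93.8% of all tested genes had a lower ratio. TRIB3 reads came to 87.6% of ATF4 reads in REH and to 3.91% in 697. Per kb of exon, TRIB3 was above 99.2% of tested protein-coding genes in REH and above 58.2% of them in 697.

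CHAC1 (chromosome 15, 40952962 to 40956512) encodes an enzyme that degrades glutathione and is another target of ATF4. Its 1522 reads in REH and 1076 reads in 697 gave 30.3 CPM and 29.1 CPM. The log2 ratio was 0.056, with an interval from -0.057 to 0.17 that included 0. Without TMM scaling it was 0.36 (interval 0.25 to 0.48), and CHAC1 reads were 6.06% of ATF4 reads in REH and 4.84% in 697, so whether CHAC1 differed depends on the scaling. The gap was wide for TRIB3, smaller for DDIT3 and smallest for CHAC1 by either scaling, although these genes are known targets of the same pathway.

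**Figure D2:**
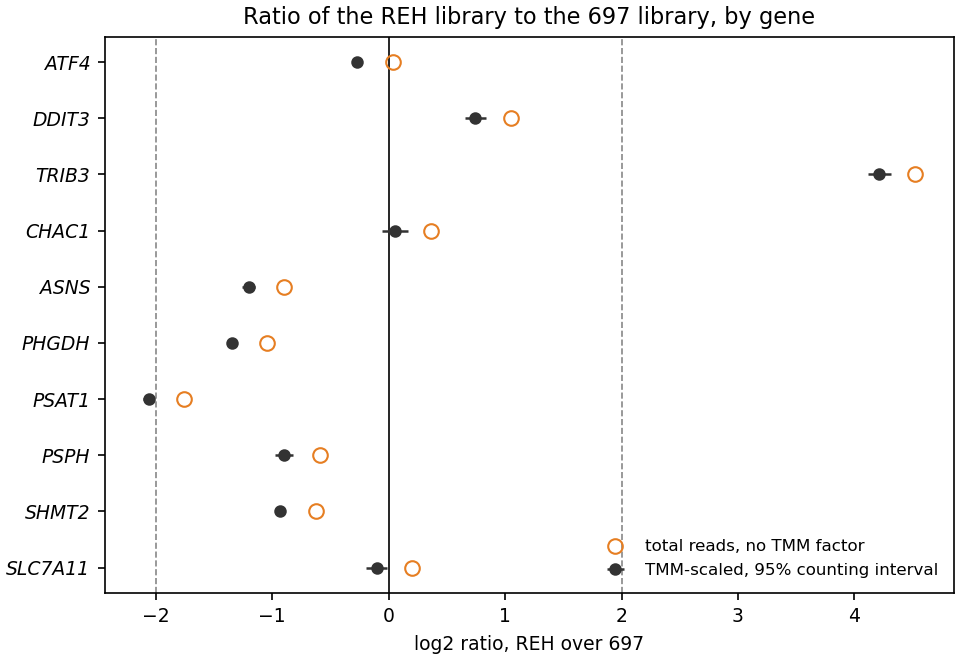
Log2 ratio of REH over 697 for each gene, with filled points and 95% counting intervals after TMM scaling and open circles for total reads without a TMM factor. Dashed lines mark a log2 ratio of 2 in size. Without TMM every point lies 0.31 further right, which brings ATF4 to 0.038 and SLC7A11 to 0.20, across 0, and brings CHAC1, whose interval included 0, to 0.36.

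ASNS (chromosome 7, 97851677 to 97872542) had 3876 reads in REH and 6563 reads in 697. Its level was 77.1 CPM in REH and 178 CPM in 697, or 2.30-fold higher in 697. The log2 ratio was -1.20 (interval -1.26 to -1.15), and 14.6% of all tested genes had a lower ratio. The reads of ASNS were 15.4% of those of ATF4 in REH and 29.5% in 697, so ASNS was also lower in REH when set against ATF4 in the same library. Per kb of exon, ASNS stood at 15.7 CPM in REH and 36.3 CPM in 697, above 80.0% and 91.7% of tested protein-coding genes. The ASNS pseudogenes in the files took 7 reads in REH and 4 reads in 697, and an unnamed pseudogene within ASNS took 3 reads and 0 reads.

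The serine pathway draws 3-phosphoglycerate from glycolysis and turns it into serine in 3 steps. PHGDH (chromosome 1, 119648411 to 119744218), the first and committed enzyme, had 23105 reads in REH and 43291 reads in 697. Its level was 459.7 CPM in REH and 1172 CPM in 697, a log2 ratio of -1.35 (interval -1.37 to -1.33). PHGDH had the most reads of the 10 genes in 697.

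PSAT1 (chromosome 9, 78297125 to 78330093), the aminotransferase of the second step, had 5325 reads in REH and 16342 reads in 697. At 106 CPM against 442 CPM its log2 ratio was -2.06 (interval -2.11 to -2.02). It was the widest difference toward 697 among the members, and 7.83% of all tested genes had a lower ratio. PSAT1 passed a log2 ratio of 2 in size only just, and at -1.75 without TMM scaling it did not.

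PSPH (chromosome 7, 56011051 to 56051604), the phosphatase of the last step, had 2351 reads in REH and 3220 reads in 697. This gave 46.8 CPM and 87.2 CPM, a log2 ratio of -0.90 (interval -0.98 to -0.82). The mRNA of the enzyme was thus higher in 697 at each step, by unequal amounts. PSPH has a pseudogene nearby, PSPHP1, to which 0 reads were assigned in either library, and reads that matched both copies were not counted.

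SHMT2 (chromosome 12, 57229573 to 57234935), the mitochondrial enzyme that splits serine into glycine and a one-carbon unit, had 14663 reads in REH and 20590 reads in 697. Its level was 292 CPM in REH and 557 CPM in 697, a log2 ratio of -0.93 (interval -0.96 to -0.90). Relative to ATF4 reads, PHGDH stood at 92.0% in REH and 195% in 697, PSAT1 at 21.2% and 73.4%, PSPH at 9.36% and 14.5%, and SHMT2 at 58.4% and 92.5%. Each of these 4 genes was therefore higher in 697 by this measure as well.

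SLC7A11 (chromosome 4, 138164097 to 138242349) encodes the transport subunit of the cystine and glutamate exchanger. It had 2368 reads in REH and 1871 reads in 697, or 47.1 CPM and 50.6 CPM. The log2 ratio was -0.10 (interval -0.19 to -0.016), and without TMM scaling it changed sign to 0.20. SLC7A11 reads were 9.43% of ATF4 reads in REH and 8.41% in 697. The antisense gene SLC7A11-AS1 overlaps it, and 189 reads in REH and 176 reads in 697 were left out as ambiguous. Its partner subunit SLC3A2 had 397 CPM in REH against 375 CPM in 697 (log2 ratio 0.082).

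**Figure D3:**
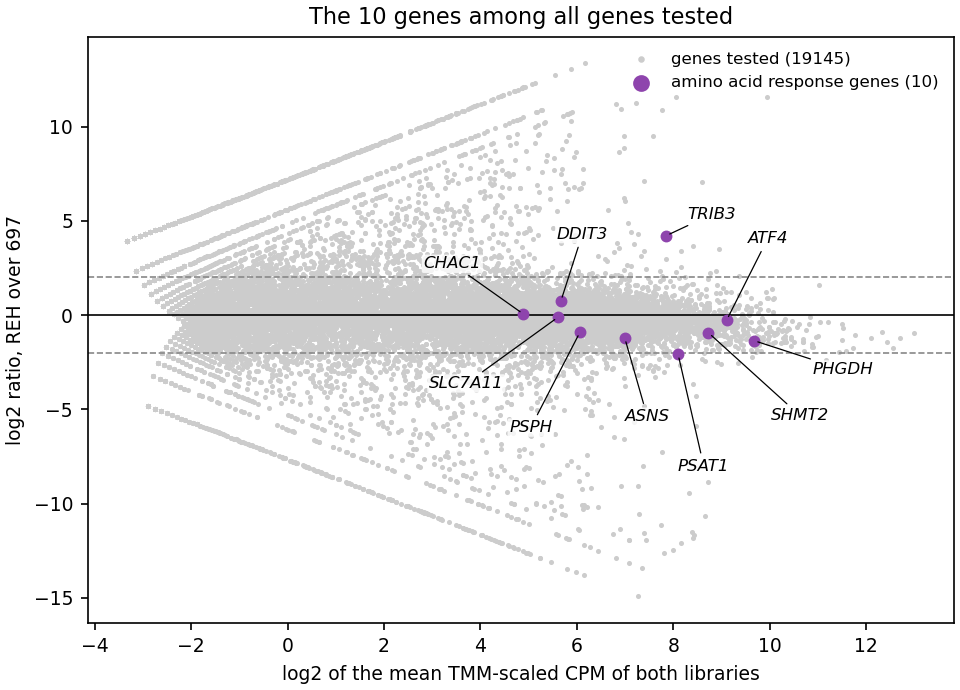
Log2 ratio of REH over 697 (vertical) against the log2 of the mean CPM of both libraries (horizontal) for the 19145 tested genes in grey and the 10 amino acid response genes in purple. Dashed lines mark a log2 ratio of 2 in size, which TRIB3 passes above and PSAT1 just passes below.

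The order of the members within a library was taken per kb of annotated exon. In REH it ran from ATF4 (191 CPM per kb) and TRIB3 (133) over SHMT2 (63.5), PHGDH (50.03), DDIT3 (48.7) and PSAT1 (48.0) to PSPH (16.9), ASNS (15.7), CHAC1 (14.8) and SLC7A11 (4.88). In 697 it ran from ATF4 (230.5 CPM per kb), PSAT1 (201), PHGDH (128) and SHMT2 (121) over ASNS (36.3), PSPH (31.6) and DDIT3 (29.1) to CHAC1 (14.2), TRIB3 (7.16) and SLC7A11 (5.25). TRIB3 was the second most abundant member in REH and the ninth in 697. In REH the counting intervals of PHGDH and DDIT3, of DDIT3 and PSAT1, and of ASNS and CHAC1 overlapped, as did those of PSPH and DDIT3 in 697, so these neighbours cannot be ordered. These places depend on the length used. The annotated exons of PHGDH, for instance, add up to 9187 bases but its transcripts average 1329 bases. With mean transcript lengths the order in REH was ATF4, PHGDH, TRIB3, SHMT2, DDIT3, PSAT1, ASNS, PSPH, CHAC1 and SLC7A11, so that PHGDH rose to the second place. In 697 it was PHGDH, SHMT2, ATF4, PSAT1, ASNS, PSPH, DDIT3, CHAC1, TRIB3 and SLC7A11, with ATF4 no longer the first and TRIB3 still the ninth.

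Most genes that feed into ATF4 lay within a log2 ratio of 1 in size, with 1 exception after TMM scaling. Of 16 genes for eIF2 alpha kinases, their regulators and factors that promote ATF4 translation, 15 (93.8%) stayed within it, against 60.2% of all tested genes, and the list median was -0.046. Without TMM scaling this and every list median below lay 0.31 higher, as did that of all tested genes, and the medians of this list (0.26), the transcription factors (0.27), the asparagine enzymes (0.17) and the transporters (0.013) became positive. The amino acid sensor kinase GCN2 (EIF2AK4) had 95.7 CPM in REH against 151 CPM in 697 (log2 ratio -0.66), and the stress kinase of the endoplasmic reticulum, PERK (EIF2AK3), had 75.2 CPM and 43.3 CPM (log2 ratio 0.80). Without TMM scaling PERK passed a log2 ratio of 1, and 14 genes (87.5%) stayed within it, against 58.1% of all tested genes. The exception after TMM scaling was IMPACT, an inhibitor of GCN2 activation, with 0 reads in REH and 1056 reads in 697. Against a floor of 3 reads in the REH library it was at least 387-fold higher in 697 on unscaled totals, the lowest bound over the scalings run.

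Among 10 transcription factors that act with ATF4 or on its targets, 9 were tested and MYC was the one with at least 100 reads that passed a log2 ratio of 1 (244 CPM in REH against 722 CPM in 697, log2 ratio -1.56). CEBPA (0 reads in REH and 29 in 697) and MYCN (24 and 0) also passed it but had few reads. In all, 2 of the 9 (22.2%) were higher in 697 and 1 (11.1%) was higher in REH, against 17.4% and 22.4% of all tested genes. MYC is known to act on serine and one-carbon genes as well. ATF5, a relative of ATF4 under the same translational control, was abundant in both, with 1419.7 CPM in REH against 768 CPM in 697 (log2 ratio 0.89), and passed a log2 ratio of 1 without TMM scaling. CEBPG, a common partner of ATF4, had 133 CPM and 148 CPM (log2 ratio -0.15).

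Other known targets of ATF4 showed both directions. Of 24 listed genes 22 were tested, and 11 of these (50%) were higher in 697 past a log2 ratio of 1 and 3 (13.6%) were higher in REH, against 17.4% and 22.4% of all tested genes. The list median was -0.97, and without TMM scaling the counts were 9 and 4. PYCR1, a proline synthesis enzyme, had 6 reads in REH and 5251 reads in 697 (log2 ratio -10.10, interval -11.66 to -9.09). CBS, which starts the conversion of homocysteine to cysteine, had 3 reads in REH and 3813 reads in 697 (log2 ratio -10.53, interval -13.03 to -9.21), with the limit that GRCh38 holds a near-identical copy of it and the build behind the counts is uncertain. The secreted glycoprotein gene STC2 (122 and 7930 reads, log2 ratio -6.46) and the lipoprotein receptor gene VLDLR (59 and 3429 reads, log2 ratio -6.29) were next. These 4 genes exceeded each of the 10 members in the size of their difference. In the other direction were the death receptor gene TNFRSF10B (1823 reads in REH and 16 in 697, log2 ratio 6.34) and HERPUD1, a gene of protein degradation at the endoplasmic reticulum (8769 and 2905 reads, log2 ratio 1.15), beside ALDH1L2 with few reads (17 and 2).

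**Figure D4:**
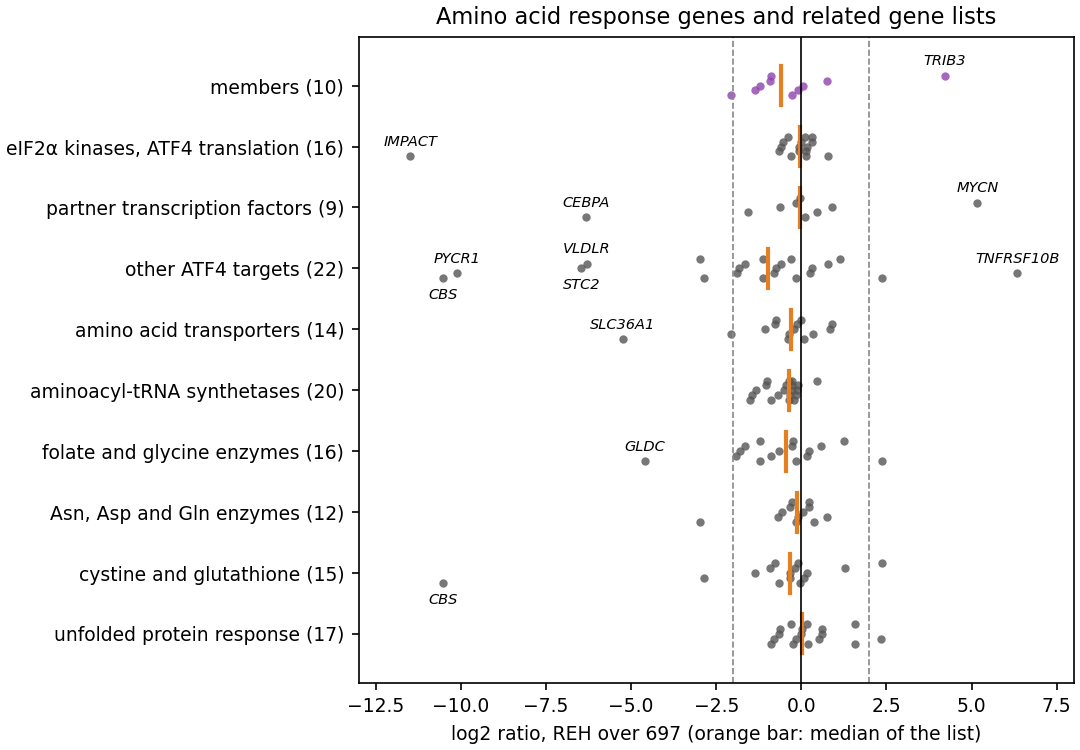
Log2 ratio of REH over 697 for each tested gene of the 10 members (purple) and 9 related lists (grey, number of genes tested in parentheses), with the list median as an orange bar and dashed lines at a log2 ratio of 2 in size. Genes beyond 4 in either direction are named. The other ATF4 targets have the lowest median, -0.97, and the unfolded protein response list lies at 0.013.

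Enzymes that use the products of serine synthesis showed both directions, with more genes higher in 697. Of 17 folate and glycine enzymes 16 were tested, with 6 (37.5%) higher in 697 and 2 (12.5%) higher in REH past a log2 ratio of 1, against 17.4% and 22.4% of all tested genes. The median was -0.46, and without TMM scaling the counts were 4 and 2. Some genes stand in more than 1 list, so the counts of the lists are not separate observations. MTHFD2 and ALDH1L2 are also among the other ATF4 targets above, as are GPT2, CBS and CTH of the lists below. In the mitochondrial branch that follows SHMT2, MTHFD2 had 173 CPM in REH against 543 CPM in 697 (log2 ratio -1.65), and MTHFD1L had 49.8 CPM and 189 CPM (log2 ratio -1.93). Glycine decarboxylase, GLDC, had 6.39 CPM and 154 CPM (log2 ratio -4.59), and its partner AMT had 4.66 CPM and 16.2 CPM (log2 ratio -1.80). The cytosolic counterpart of SHMT2, SHMT1, had 57.2 CPM in REH against 38.3 CPM in 697 (log2 ratio 0.58), the opposite direction to SHMT2.

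Most enzymes around asparagine other than ASNS also lay within a log2 ratio of 1 in size. Of 14 listed genes 12 were tested, and 11 of them (91.7%) lay within it. The share was 60.2% over all tested genes, which again include genes with few reads. The list median was -0.14. Without TMM scaling 10 (83.3%) lay within it, against 58.1% of all tested genes, and 1 gene was higher in each line. The exception after TMM scaling was GPT2, the mitochondrial alanine aminotransferase, with 43.3 CPM in REH against 341 CPM in 697 (log2 ratio -2.98). The asparaginase-like genes ASPG (0 and 2 reads) and ASRGL1 (0 and 0 reads) did not reach 10 reads in a library and were not compared. Glutamine synthetase, GLUL, had 363 CPM and 586 CPM (log2 ratio -0.69).

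Of 15 amino acid transporters 14 were tested, with 3 (21.4%) higher in 697 and 0 higher in REH past a log2 ratio of 1, against 17.4% and 22.4% of all tested genes. Without TMM scaling 2 were higher in each line. The 3 were SLC36A1 (9 and 265 reads, log2 ratio -5.25), SLC36A4 (log2 ratio -2.05) and the serine and alanine carrier SLC1A4 (66.8 CPM in REH against 141 CPM in 697, log2 ratio -1.08). The leucine carrier SLC7A5 had 1290.4 CPM in REH against 696 CPM in 697 (log2 ratio 0.89). All 20 cytosolic aminoacyl-tRNA synthetase genes were tested, and 19 had a ratio below 0, against 9171 of all 19145 tested genes. The list median was -0.36. Without TMM scaling 12 had a ratio below 0, against 6876 of all tested genes, and the list median was -0.055. The 5 genes (25%, against 17.4% of all tested genes) past a log2 ratio of 1 in size were QARS1 (-1.52), VARS1 (-1.45), EPRS1 (-1.34), WARS1 (-1.03) and GARS1 (-1.02), all higher in 697. Of these, 3 (15% of the list) passed it without TMM scaling, against 13.4% of all tested genes. AARS1 was the one with a ratio above 0, at 0.47.

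Of 16 cystine and glutathione genes 15 were tested, with 3 (20.0%) higher in 697 and 2 (13.3%) higher in REH past a log2 ratio of 1, against 17.4% and 22.4% of all tested genes. Besides CBS, CTH (190 reads in REH and 1019 in 697, log2 ratio -2.86), which completes the path from homocysteine to cysteine, and glutathione reductase GSR (log2 ratio -1.37) were higher in 697, and NQO1 (232 and 70 reads, log2 ratio 1.28) and HMOX1 (31 and 4 reads) were higher in REH. Of 17 genes of the unfolded protein response outside ATF4, 3 (17.6%) were higher in REH past a log2 ratio of 1 and 0 were higher in 697, again against 22.4% and 17.4% of all tested genes. They were the sensor gene ERN1 (91.7 CPM in REH against 18.0 CPM in 697, log2 ratio 2.35), CRELD2 (log2 ratio 1.58) and DNAJB9 (log2 ratio 1.57). The main chaperone gene HSPA5 had 229 CPM in each library. Over the 132 distinct tested genes of the 9 lists, 28 (21.2%) were higher in 697 and 10 (7.58%) were higher in REH past a log2 ratio of 1, against 17.4% and 22.4% of all tested genes. Without TMM scaling the counts were 21 (15.9%) and 16 (12.1%), against 13.4% and 28.5%.

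The label of both lines as B-lineage leukemia was checked against markers. Of 12 B-cell precursor markers in the files, at least 100 reads were found for 12 in 697 and 11 in REH, where VPREB1 had 3 reads. T-cell and erythroid markers had at most 45 reads. Of 5 myeloid markers, MPO reached 12643 reads in REH and 12 in 697, CD14 had 29 and 8, CSF1R had 30 and 61, and LYZ and ELANE had at most 2 reads in either line. Of 3 stromal markers, COL1A1 had 477 reads in REH and 387 in 697, COL1A2 had 0 in both and DCN had at most 1. The part of such transcripts in the ratios above was not tested. Mitochondrial genes took 3.11% of gene reads in REH and 6.13% in 697, and leaving them out of the totals moved no member's log2 ratio by more than its counting interval.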

How the data were processed

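The authors deposited raw read counts per gene, 1 file per library, made with STAR, which counts uniquely mapped reads. The study's methods name hg38 and poly(A) selection, whereas the submitters' notes name hg19 and the labels ribodepletion. The annotation release is not given in the sources used here. CBS and U2AF1 (15881 reads in REH) have a near-identical second copy in GRCh38, which would remove their reads as multimapping, but both genes had counts here. Reads of both strands together (the second column) were analysed, since the strand totals differed by a factor of at most 1.01. Reads assigned to no gene (unmapped, multimapping, outside genes or ambiguous) were 29.3% of REH and 30.3% of 697 and stayed out of the totals.

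The totals of 45188375 reads in genes for REH and 41097497 for 697 were scaled with TMM in edgeR 4.0.16 (R 4.3.3) over genes reaching 10 reads in REH or 697, giving factors of 1.11 and 0.899. Ratios were formed after adding 0.5 reads. The 95% interval came from the exact binomial (Clopper-Pearson) limits on REH's share of a gene's reads, and covers counting error only. It treats each read as independent. Duplicate reads are not independent molecules, so the interval may be too narrow even for counting error. The floor of 3 reads equals 0.0664 CPM for REH and 0.0730 CPM for 697 on unscaled totals. DESeq2, which the study used, needs replicates. Its size factors (version 1.42.0) were an alternative, with unscaled totals, protein-coding TMM, totals without mitochondrial genes, 5 added reads, each strand column, other filters and a log2 threshold of 1.

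Symbols, positions and exon lengths came from GENCODE 44 (51996 of 57773 IDs matched), and promoters from RefSeq. The members and lists were chosen with earlier results of these data known. From each list, genes with at least 100 reads past a log2 ratio of 1 were named, up to 4 per direction, except that some items are not reported here. Further list genes (GARS1, AARS1, SLC3A2, SLC7A5, ATF5, CEBPG, EIF2AK3, EIF2AK4, SHMT1, GLUL, HSPA5, ASPG and ASRGL1) were added for their role after values were seen. With 2 libraries a pattern is 1 ratio, so no gene was named for a like pattern. The computation was tested on simulated data. Intervals were computed with scipy 1.17.1 in Python 3.11.15, and plots were drawn with matplotlib 3.10.9.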

Additional observations from a re-analysis of the deposited data

How the results depend on the processing

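No paired analysis was possible because REH and 697 have 1 library each, and so no replicate could be left out. Summing the strand columns, and combining a log2 threshold of 1 with unscaled totals, were added after seeing the data. Total reads without a TMM factor gave the widest shift, 0.31 on the log2 scale for the median of all tested genes. With them the log2 ratio of ATF4 was 0.038 and that of SLC7A11 was 0.20, both reversed, 0 members were higher in 697 past a log2 ratio of 2, and the list medians became 0.26 for the eIF2 alpha kinases and regulators and -0.055 for the aminoacyl-tRNA synthetases. Over all alternatives run, TRIB3 ranged from 4.14 to 4.52, DDIT3 from 0.61 to 1.05, ASNS from -1.23 to -0.90, PHGDH from -1.38 to -1.04, PSAT1 from -2.09 to -1.75, PSPH from -0.93 to -0.59, and SHMT2 from -0.96 to -0.63, so that these 7 kept their direction. CHAC1 ranged from 0.03 to 0.36, and its counting interval, which included 0 after TMM scaling, did not without it. The number of list genes higher in REH past a log2 ratio of 2 was 5 of 132, against 2396 (12.5%) of all tested genes. The list count became 3 with 5 added reads, 3 in the first strand column and 2 with a minimum of 50 reads. The count over all genes fell as well, to 1614, 2076 and 1477. Past a log2 ratio of 1, 3 members and 28 list genes were higher in 697 and 10 list genes were higher in REH, and over all genes 4293 were higher in REH and 3336 in 697 (56.3% of calls in REH). With unscaled totals these became 2 members higher in each line, 21 list genes higher in 697 and 16 in REH, and 5456 genes higher in REH and 2566 in 697 (68.0% of calls in REH). Past a log2 ratio of 2, 2396 of all tested genes were higher in REH and 1560 in 697. With a minimum of 1 read the numbers were 3592 in REH and 4410 in 697, and with a minimum of 50 reads 1477 in REH and 1036 in 697. With mean transcript lengths the median member level per kb was 64.8 CPM in REH and 111 CPM in 697, against 48.4 and 33.9 CPM per kb of exon.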

Other observations

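The relatives of genes that stood out were inspected after their values had been seen. TRIB2, a pseudokinase of the family of TRIB3, had 3 reads in REH and 7949 reads in 697, a log2 ratio of -11.59 (95% counting interval -14.09 to -10.27), the reverse of TRIB3. TRIB1 had 2950 reads in REH and 824 reads in 697 (log2 ratio 1.40, interval 1.28 to 1.51). Summed per kb of exon, the 3 family members reached 147 CPM in REH and 59.7 CPM in 697. PYCR3, a relative of PYCR1, was present in both lines, with 14.1 CPM in REH against 25.2 CPM in 697 (log2 ratio -0.84). PHGDH, PSAT1 and PSPH summed to 115 CPM per kb of exon in REH and 359.6 CPM per kb in 697 (log2 ratio -1.64). Both sums depend on the length used, as the order of the members did. PHGDH, for instance, was divided by 9187 bases of exon, whereas its transcripts average 1329 bases.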
